A study of Paxillus involutus ATCC 200175 with 12 samples.

Results

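Of the 12214 array features of the ectomycorrhizal fungus Paxillus involutus, 16 lay lowest by set margins where the mycelium received glucose and ammonium together. They were chosen on the log2 means of the 4 groups: the group with both nutrients had to lie at least 0.5 below organic matter alone and below organic matter with ammonium, and at least 0.4 below organic matter with glucose. The mean over all 12 arrays had to reach 6, and the level with glucose had to exceed that of organic matter alone by less than 0.5, a bound that removed no feature. The differences to the group with both nutrients therefore chose these features and are given as a description, without tests. Without the margins, that group had the lowest mean in 3562 of the 11499 features whose mean reached 6. The features carry running numbers (paxillus_479 and so on). None of the 16 could be matched to the gene table of this strain's genome, so what they encode is not known here and no sequence is shown.

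Paxillus involutus lives on the roots of trees, exchanging nitrogen that it gathers from soil for sugar made by the tree. In fungi, genes for the use of poor or complex sources are often turned down when a preferred sugar or preferred nitrogen source is at hand, which is known as carbon and nitrogen catabolite repression. With each nutrient given alone and both given together, the 4 groups show the level of a transcript under each combination.

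All cultures were strain ATCC 200175, grown axenically on glass beads for 9 days, deprived of nitrogen for 24 h and then incubated for 7 days with organic matter that hot water had extracted from maize compost. Filtration at 0.2 um and ultrafiltration at 10 kDa had freed the extract of particles and of small compounds. The 4 groups of 3 arrays were the extract alone (OM), with ammonium (OM+N), with glucose (OM+G) and with both (OM+N+G), and the sources used here do not state how much of each nutrient was added. Each array was a subarray of 1 single-colour NimbleGen slide that held Cy3-labelled cDNA made from total RNA. Each array was taken to stand for a culture of its own, which the series' design text implies but does not spell out. The OM arrays were subarrays 1 to 3, OM+N 4 to 6, OM+G 7 to 9 and OM+N+G 10 to 12, so group and place on the slide cannot be told apart.

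The arrays had log2 medians of 11.74 to 11.78, and the random-sequence control lay between 3.66 and 3.80. The interquartile range of an array was 1.06 to 1.12 without glucose and 1.25 to 1.27 with it. The values are RMA values, and in its usual form RMA evens the probe distributions of the arrays, so a level is relative to the other features of its array. The summarised distributions given here still differed in width between arrays with and without glucose. Less RNA per cell cannot be told apart from fewer cells that make it. No detection call comes with the values, and the number of arrays limits the precision.

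The 16 features passed successive bounds. Of 11499 features with a mean of at least 6, OM+N+G lay at least 0.5 below OM in 1723 and at least 0.5 below OM+N in 2311, and both held for 1672. OM+N+G lay at least 0.4 below OM+G in 130 features. Only 16 features, or 0.139% of the 11499, met all bounds. By the same bounds with the sign turned, OM+N+G was the highest group for 108 features. These comparisons share the OM+N+G arrays.

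Among the 16 features, the median difference was 0.69 for OM minus OM+N+G (range 0.51 to 0.92), 0.60 for OM+N minus OM+N+G (0.50 to 0.89) and 0.50 for OM+G minus OM+N+G (0.41 to 1.12). Over all 11499 features these medians were 0.03, 0.07 and 0.01. In linear terms the group with both nutrients lay 1.42-fold to 1.89-fold below OM, 1.41-fold to 1.85-fold below OM+N and 1.33-fold to 2.18-fold below OM+G. In all 16 features each OM+N+G array lay below each of the other 9 arrays, which was so for 6.7% of the features averaging at least 6. Taken singly, OM+N+G lay wholly below OM in 39.4% of those features, below OM+N in 44.5% and below OM+G in 14.2%. Since the rule used these differences, nothing is read from the count of 16. The distance between the highest OM+N+G array and the lowest other array ranged from 0.15 for paxillus_12681 to 0.59 for paxillus_2753.

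**Figure D1:**
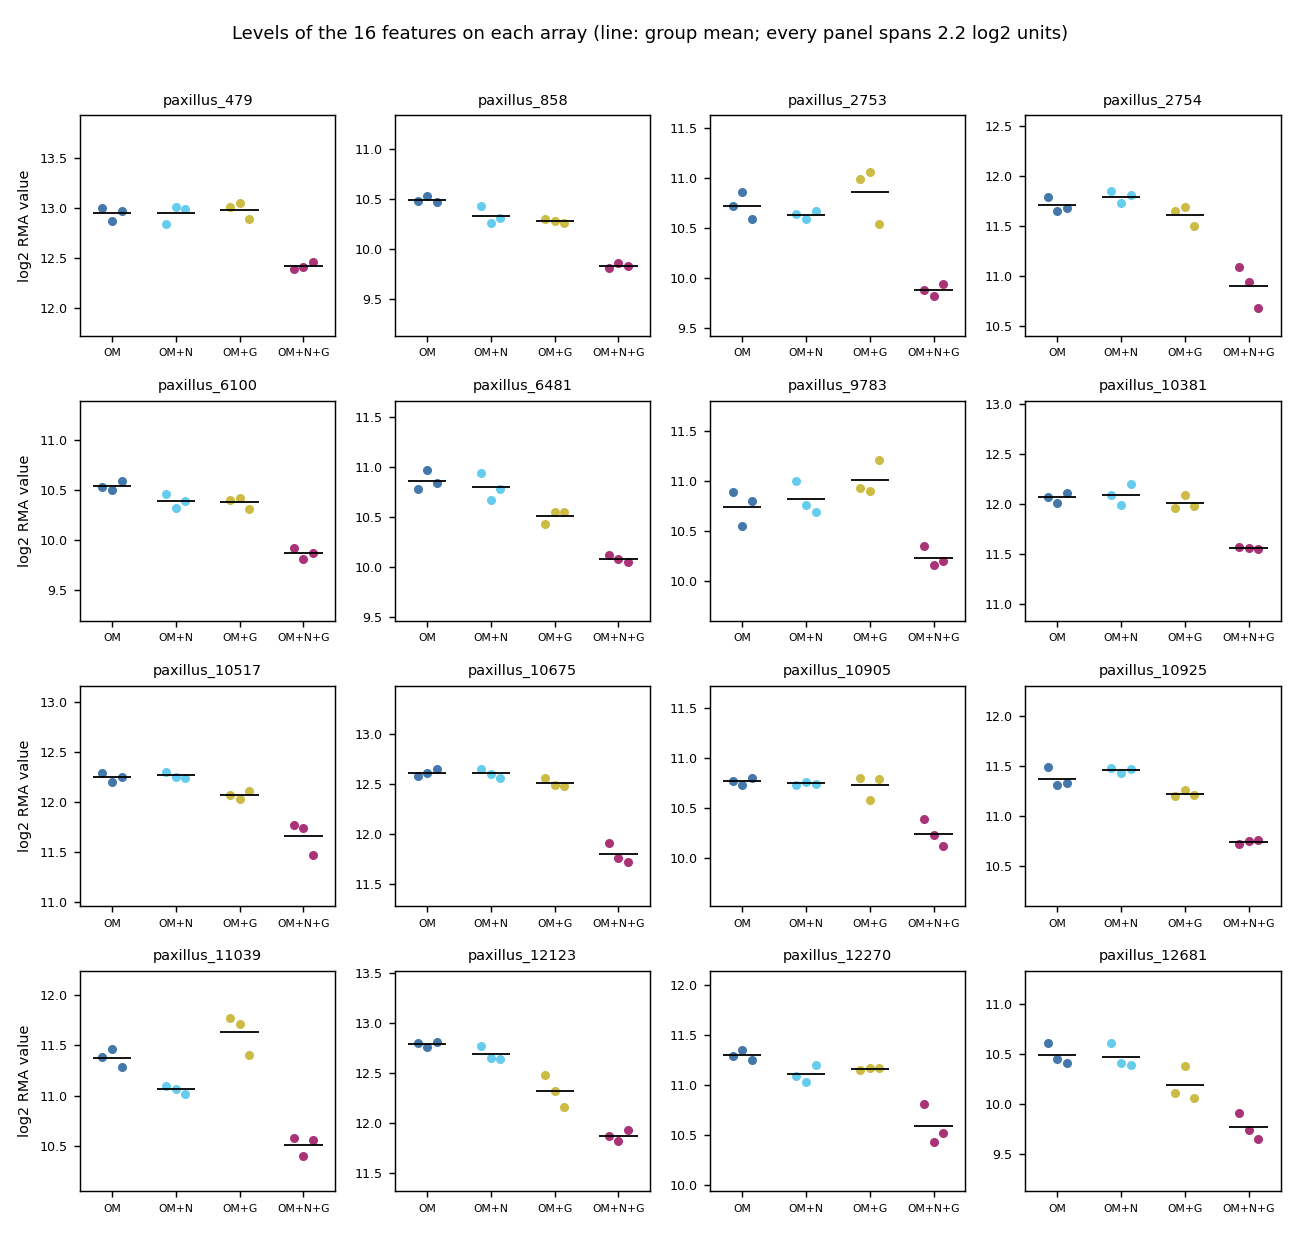
Level of each of the 16 features on each array (y axis, log2 RMA value) in the 4 groups (x axis); points are arrays, in the order of the replicate numbers, and black lines are group means of 3 arrays. In every panel the 3 OM+N+G points lie below the other 9, by 0.15 in paxillus_12681 and by 0.59 in paxillus_2753.

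The other 3 groups were not alike in all of the features, and 3 kinds were set apart after their values were seen. The kinds describe the values as deposited, and features change kind under other scalings. In 4 features the means of OM, OM+N and OM+G lay within 0.1 of each other. Of the remaining 12, OM+G was the highest group in 3 and lay below OM, by 0.10 to 0.47, in 9. Counted over all 16, OM+G lay below OM in 12. After cyclic loess between arrays the OM+G mean lay above OM in paxillus_858, paxillus_6100 and paxillus_12270, which belong to the 9. Their OM+G and OM means were then 0.46 and 0.43, 0.52 and 0.45, and 0.58 and 0.55 above OM+N+G. In the rest of the 9 the OM+G mean stayed below OM. As deposited, the distance from the lowest of the other 3 means to OM+N+G exceeded the spread among those 3 means in 14 of the 16 features. The exceptions were paxillus_11039, with a distance of 0.55 and a spread of 0.57, and paxillus_12123, with 0.45 and 0.47. After cyclic loess the distance was below the spread in both (0.36 and 0.77, 0.45 and 0.53). The same then held for paxillus_858 (0.21 and 0.25), paxillus_2753 (0.48 and 0.50), paxillus_6100 (0.24 and 0.29) and paxillus_9783 (0.32 and 0.47).

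Of the 4 features that were level in the other groups as deposited, paxillus_479 was the brightest of the 16, at a mean of 12.82 over all arrays. It stood at 13.00, 12.87 and 12.97 for OM, at 12.84, 13.01 and 12.99 for OM+N and at 13.01, 13.05 and 12.89 for OM+G, but at 12.39, 12.41 and 12.46 for OM+N+G. The means of the 3 higher groups differed by 0.04, and OM+N+G lay 0.53 below OM (SE 0.07), 1.44-fold in linear terms. paxillus_10675 showed the largest distance of this kind. It measured 12.58, 12.60 and 12.65 for OM, 12.65, 12.60 and 12.56 for OM+N, 12.56, 12.49 and 12.48 for OM+G and 11.90, 11.76 and 11.72 for OM+N+G. Its OM+N+G mean was thus 0.81 below OM (SE 0.06), 0.81 below OM+N and 0.71 below OM+G, and 0.58 separated its highest OM+N+G array from its lowest other array. Among the 16 only paxillus_2753 had a wider separation.

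paxillus_10381 and paxillus_10905 had the same form with smaller distances. paxillus_10381 had means of 12.06 ± 0.05 for OM, 12.09 ± 0.10 for OM+N and 12.01 ± 0.07 for OM+G, against a log2 mean of 11.56 ± 0.01 for OM+N+G (SD, n = 3). Its OM+N+G arrays, at 11.57, 11.55 and 11.55, were among the tightest of the set. paxillus_10905 read 10.77, 10.73 and 10.80 for OM, 10.73, 10.76 and 10.74 for OM+N and 10.80, 10.58 and 10.79 for OM+G. In OM+N+G it read 10.39, 10.23 and 10.12, so that the arrays of that group spread over more than the 6 arrays without glucose. The gap between its nearest arrays was 0.19, where OM+G replicate 2 and OM+N+G replicate 1 approached each other. After cyclic loess between arrays its smallest difference to OM+N+G was 0.24 in place of 0.48, and the other 3 means spread over 0.24. The spread of those means after cyclic loess was 0.13 for paxillus_479, 0.04 for paxillus_10381 and 0.16 for paxillus_10675. It was then also under 0.1 in paxillus_2754 (0.05), paxillus_10925 (0.05) and paxillus_12681 (0.09), which were not level as deposited.

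In paxillus_2753, paxillus_9783 and paxillus_11039 glucose alone gave the highest mean and glucose with ammonium the lowest. paxillus_2753 measured 10.72, 10.86 and 10.59 for OM, 10.64, 10.60 and 10.67 for OM+N, 10.99, 11.06 and 10.54 for OM+G and 9.88, 9.83 and 9.95 for OM+N+G. Its smallest difference to OM+N+G, 0.75 (against OM+N, SE 0.11), was the largest among the 16. The rule chose on these differences, so this rank is a description only. OM+G replicate 3 lay below every array without glucose, while OM+G replicates 1 and 2 lay above all of them. Its OM+G mean of 10.86 ± 0.28 (SD, n = 3) is therefore loosely set, and its difference to OM+N+G was 0.98 (SE 0.11), or 1.97-fold. After cyclic loess its smallest difference was 0.48.

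paxillus_11039 had the widest range of group means among the 16. Its values were 11.38, 11.46 and 11.28 for OM, 11.10, 11.07 and 11.01 for OM+N, 11.77, 11.71 and 11.41 for OM+G and 10.57, 10.39 and 10.56 for OM+N+G. OM+G exceeded OM+N+G by 1.12 (SE 0.09), a 2.18-fold difference and the largest of the set. Here too OM+G replicate 3 was the lowest of its group, and it overlapped the OM arrays. paxillus_9783 measured 10.89, 10.55 and 10.80 for OM, 11.00, 10.76 and 10.69 for OM+N, 10.93, 10.90 and 11.21 for OM+G and 10.35, 10.16 and 10.20 for OM+N+G. It was the only one of the 16 in which each OM+G array lay above each OM array, which was so for 34.7% of all features averaging at least 6. OM+G replicate 3, low in the other 2 features of this kind, was the highest array here. After cyclic loess the smallest difference was 0.32 in place of 0.51 for paxillus_9783, and 0.36 in place of 0.55 for paxillus_11039.

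As deposited, the 9 features with a wider spread among the other groups and OM+G below OM were paxillus_858, paxillus_2754, paxillus_6100, paxillus_6481, paxillus_10517, paxillus_10925, paxillus_12123, paxillus_12270 and paxillus_12681. In 8 of them each OM+G array was below each OM array, and with paxillus_10675 this held for 9 of the 16, against 40.8% of the features averaging at least 6. The rule bounds the difference between OM+G and OM from above, so this share is not read further. The difference between OM+G and OM+N+G was 0.41 to 0.71 in these 9.

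paxillus_12123 came closest to stepwise levels. It stood at 12.79, 12.76 and 12.81 for OM, at 12.77, 12.65 and 12.64 for OM+N, at 12.48, 12.32 and 12.16 for OM+G and at 11.87, 11.82 and 11.92 for OM+N+G. Glucose alone went with a mean 0.47 below OM, and glucose with ammonium with one 0.92 below OM (SE 0.08), a 1.89-fold difference and the largest to OM among the 16. The OM+G arrays lay between the 6 arrays without glucose and the OM+N+G arrays and overlapped neither.

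paxillus_6481 and paxillus_12681 resembled it at lower levels. paxillus_6481 had means of 10.86 ± 0.10 for OM, 10.80 ± 0.14 for OM+N, 10.51 ± 0.07 for OM+G and 10.08 ± 0.04 for OM+N+G (SD, n = 3, log2). paxillus_12681, the dimmest of the 16 with a mean of 10.23 over all arrays, read 10.61, 10.45 and 10.41 for OM, 10.61, 10.40 and 10.39 for OM+N, 10.11, 10.38 and 10.06 for OM+G and 9.91, 9.74 and 9.65 for OM+N+G. Its OM+G replicate 3 and OM+N+G replicate 1 were 0.15 apart, the narrowest separation of the set.

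In paxillus_10517 and paxillus_10925 ammonium alone left the level at or slightly above that of OM. paxillus_10517 measured 12.29, 12.20 and 12.25 for OM, 12.30, 12.25 and 12.24 for OM+N, 12.07, 12.03 and 12.10 for OM+G and 11.77, 11.74 and 11.47 for OM+N+G. Replicate 3 of OM+N+G lay well under the others of its group, and without that array the OM+G minus OM+N+G difference was 0.32 instead of 0.41, under the bound of the rule. paxillus_10925 measured 11.49, 11.31 and 11.33 for OM, 11.49, 11.43 and 11.47 for OM+N, 11.20, 11.26 and 11.21 for OM+G and 10.72, 10.75 and 10.76 for OM+N+G. Its 3 OM+N+G arrays lay close together, and 0.44 separated them from the lowest of the other arrays.

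paxillus_858, paxillus_6100 and paxillus_12270 differed from the other features of this kind in having each OM+N array below each OM array. paxillus_858 read 10.49, 10.53 and 10.47 for OM, 10.43, 10.27 and 10.31 for OM+N, 10.30, 10.29 and 10.26 for OM+G and 9.82, 9.86 and 9.83 for OM+N+G. paxillus_6100 had means of 10.54 ± 0.05 for OM, 10.39 ± 0.07 for OM+N, 10.38 ± 0.06 for OM+G and 9.87 ± 0.06 for OM+N+G (SD, n = 3, log2). In both as deposited, the means with 1 nutrient lay 0.15 to 0.21 below OM, with OM+G minus OM+N at -0.05 and -0.01. OM+N+G lay 0.66 and 0.67 below OM (SE 0.06 each). After cyclic loess OM+N still lay below OM in both, but OM+G lay above it. The OM, OM+N and OM+G means were then 0.43, 0.21 and 0.46 above OM+N+G for paxillus_858, and 0.45, 0.24 and 0.52 for paxillus_6100. paxillus_12270 read 11.30, 11.35 and 11.25 for OM, 11.10, 11.04 and 11.20 for OM+N, 11.15, 11.18 and 11.17 for OM+G and 10.81, 10.44 and 10.53 for OM+N+G, with replicate 1 of the last group nearer to the other groups than its fellows. After cyclic loess the smallest difference to OM+N+G was 0.21 for paxillus_858 (0.45 as deposited), 0.24 for paxillus_6100 (0.51) and 0.31 for paxillus_12270 (0.52).

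paxillus_2753 and paxillus_2754 carry consecutive numbers and were the only such pair among the 16. paxillus_2754 measured 11.80, 11.65 and 11.68 for OM, 11.85, 11.73 and 11.81 for OM+N, 11.65, 11.69 and 11.50 for OM+G and 11.09, 10.94 and 10.68 for OM+N+G. OM+N+G lay 0.80 below OM (SE 0.09), 0.89 below OM+N and 0.71 below OM+G. Across the 12 arrays both features correlated with Pearson's r of 0.86, a description that rests largely on the OM+N+G arrays that the rule selected. Their difference ranged from -1.21 to -0.63 between arrays (log2, paxillus_2753 minus paxillus_2754), so they are not copies of 1 measurement. What adjacent numbers stand for is not stated in the sources used here.

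The features numbered on either side, looked up after the pair was seen, had other patterns. paxillus_2752 had means of 12.16 with glucose alone and 12.14 with both nutrients, against 12.65 and 12.66 for OM and OM+N. paxillus_2755 had means of 13.92 for OM, 13.74 for OM+N, 14.28 for OM+G and 13.58 for OM+N+G. Its OM+N+G level was also the lowest of the 4, with 0.70 to OM+G but only 0.15 to OM+N.

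**Figure D2:**
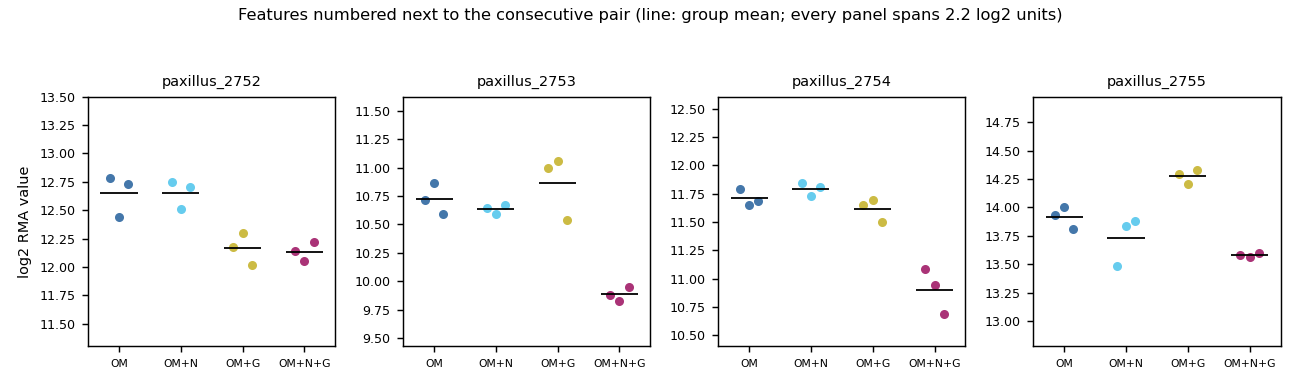
Levels (y axis, log2 RMA value) of 4 features with consecutive running numbers in the 4 groups (x axis), with arrays as points and group means of 3 arrays as lines. paxillus_2753 and paxillus_2754 fall lowest in OM+N+G, paxillus_2752 lies low in both glucose groups (12.16 and 12.14), and paxillus_2755 is highest in OM+G (14.28).

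The rule set no bound on the difference between OM+N and OM, and that difference asks whether ammonium changed these features on organic matter alone. None of the 16 was called at an adjusted p under 0.05 by limma with Benjamini-Hochberg adjustment over all 12214 features, against 0.336% of all features. At that share, no call would be usual for any 16 features, so nothing is read from the count. The rule used the means of both groups, so the test is not fully free of the choice. The difference ranged from -0.32 to 0.09 with a median of -0.02, and 11 of the 16 had OM+N below OM, against 38.1% of the 11499 features, whose median was 0.04. At an unadjusted p under 0.05, 4 of the 16 passed, against 15.2% of all features.

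These 4 were paxillus_11039, paxillus_858, paxillus_6100 and paxillus_12270, and in the same 4 each OM+N array lay below each OM array, which was so for 6.47% of the features averaging at least 6. OM+N minus OM was -0.32 for paxillus_11039 (SE 0.09, limma adjusted p = 0.196). The values were -0.16 for paxillus_858 (SE 0.06, limma adjusted p = 0.256), -0.15 for paxillus_6100 (SE 0.06, limma adjusted p = 0.283) and -0.19 for paxillus_12270 (SE 0.08, limma adjusted p = 0.322). In none of the 16 did each OM+N array lie above each OM array, against 9.84% of the features averaging at least 6. A p that misses the threshold does not show that the level stayed the same.

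Set side by side, the ammonium difference was larger in size with glucose than without it in all 16 features, with medians of 0.50 for OM+G minus OM+N+G and -0.02 for OM+N minus OM. As deposited, the glucose difference was likewise larger in the presence of ammonium in all 16. Its medians were 0.60 for OM+N minus OM+N+G and -0.12 for OM+G minus OM. After cyclic loess it was smaller with ammonium than without in paxillus_9783 and paxillus_11039. Their OM, OM+N and OM+G means then lay 0.32, 0.33 and 0.78, and 0.72, 0.36 and 1.13, above OM+N+G. Quantile normalization had the same outcome for paxillus_9783, at 0.33, 0.37 and 0.74. The log2 change from OM to OM+N+G, less the sum of both single changes, ran from -0.89 in paxillus_2753 (SE 0.16) to -0.29 in paxillus_858 (SE 0.08). The median of this departure was -0.47 in the set and -0.03 over the 11499 features. The bounds of the rule favour such a departure, and no test is attached to it.

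**Figure D3:**
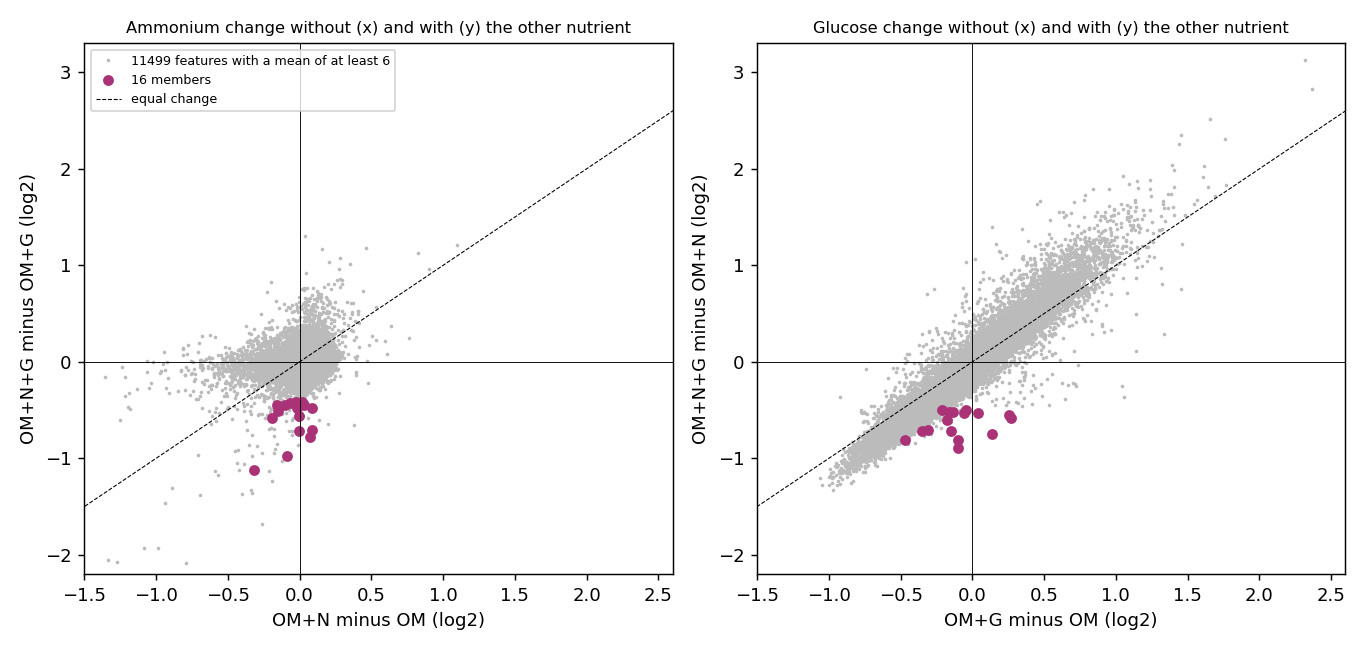
Ammonium change (left) and glucose change (right) of each feature without the other nutrient (x axis, log2) and with it (y axis, log2); grey points are the 11499 features averaging at least 6, purple points the 16, and the dashed line marks equal changes. On the left the 16 lie between -0.32 and 0.09 on the x axis and between -1.12 and -0.41 on the y axis, and in both panels all lie below the dashed line.

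Features that meet only part of the rule form 2 neighbouring sets. The first holds 1656 features in which OM+N+G lay at least 0.5 below OM and OM+N but less than 0.4 below OM+G. There the median of OM+G minus OM was -0.59, against -0.12 in the 16, beside a median of 0.74 for OM+N minus OM+N+G in that set and 0.60 in the 16. The second holds the other 114 features with OM+G at least 0.4 above OM+N+G, and its median OM+G minus OM was 0.42. The median of OM+N minus OM was 0.09 in the first set, -0.24 in the second and -0.02 in the 16. No test was made of these differences, since the bounds produce them in part.

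The rule did not use the spread between replicates. The pooled SD within groups had a median of 0.09 (range 0.05 to 0.16), and its median over the 11499 features was 0.09. By group, the median SD of the 16 was 0.06 for OM, 0.07 for OM+N, 0.08 for OM+G and 0.08 for OM+N+G, against 0.10, 0.08, 0.06 and 0.07 over all features. In the more uneven arrays, 13 of the 16 lay below the group mean in OM+N replicate 2, 12 in OM+N+G replicate 2 and 11 in OM+G replicate 3. Above it lay 12 in OM+N replicate 1 and 11 in OM+G replicate 2 and OM+N+G replicate 1. Such counts were not made over all features, so neither these nor those below are read as a trait of the 16. OM replicate 2 and OM+N replicate 1 were the arrays farthest from their group means over the 11499 features, with root mean square deviations of 0.14 and 0.13 (log2). Over the 16 their median deviation was -0.04 and 0.04, with 11 of the 16 below the group mean in the former and 12 above it in the latter. Without both arrays 17 features met the bounds, 13 of them among the 16. Each of the 16 was summarised from 10 probes.

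The 16 were dim for this array: 11 lay below the median level of the 11499 features (11.83), and 10 lay in the dimmest 25% of these. The levels ran from 10.23 for paxillus_12681 to 12.82 for paxillus_479. After cyclic loess between arrays, which evens out trends with brightness, none of these 10 and 5 of the other 6 met the bounds; 12 features met them in all. After quantile normalization 3 of the 10 and 4 of the 6 met them, and 11 features in all. Under cyclic loess some misses were narrow. OM minus OM+N+G was 0.494 for paxillus_10925 (of the 10) and paxillus_10381 (of the 6), against 0.5. The smallest difference was 0.49 for paxillus_10925 (0.48 as deposited), 0.44 for paxillus_6481 (0.43) and 0.41 for paxillus_12681 (0.42). Their OM+N minus OM+N+G fell to 0.54, 0.45 and 0.41 (0.72, 0.72 and 0.70 as deposited). In the rest of the 10 the smallest difference fell, to between 0.21 and 0.48. The part of brightness in the low OM+N+G levels of the 10 was not tested further.

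paxillus_479, paxillus_2754, paxillus_10675 and paxillus_12123 met the bounds as deposited and under cyclic loess, quantile normalization and scaling to the 75th percentile. In paxillus_10675 the smallest difference to OM+N+G was 0.71 as deposited and 0.67 to 0.72 under those alternatives, and in paxillus_2754 it was 0.71 and 0.66 to 0.71. In paxillus_2753 it was 0.75 as deposited but 0.48 after cyclic loess, just under the bound. It shrank by more than 1.5 times after cyclic loess in 7 of the 16, namely paxillus_858, paxillus_2753, paxillus_6100, paxillus_9783, paxillus_10905, paxillus_11039 and paxillus_12270, and after quantile normalization in 4.

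**Figure D4:**
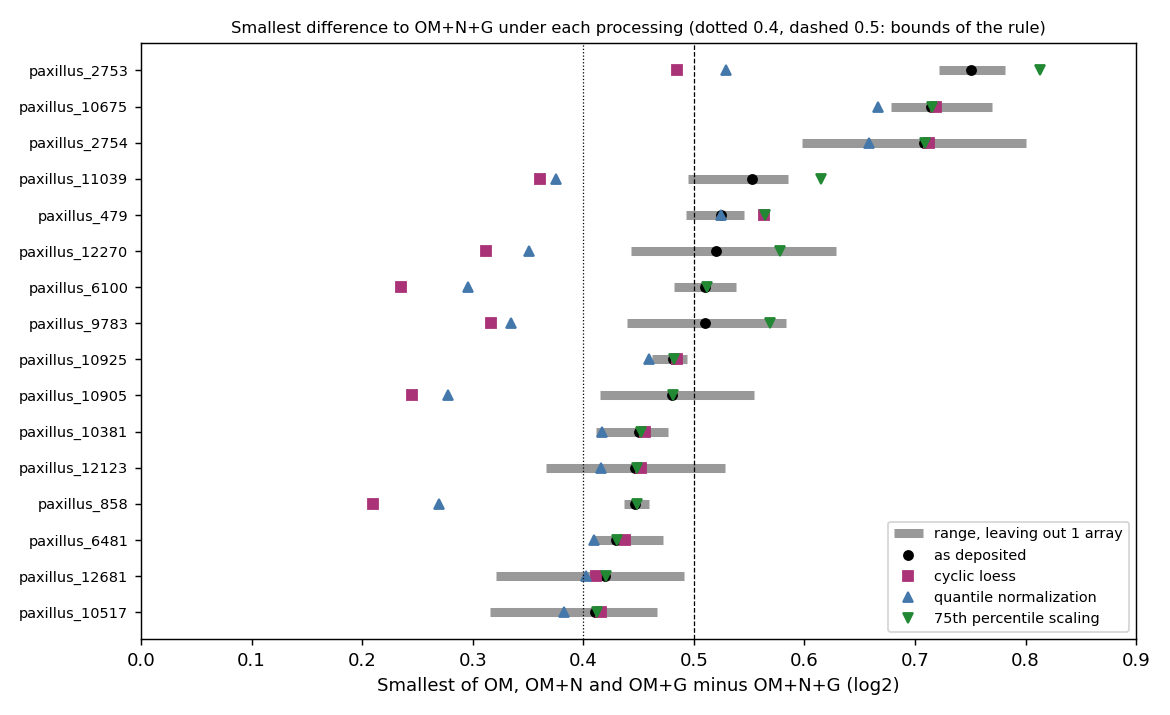
Smallest of the 3 differences to OM+N+G (x axis, log2) for each of the 16 features (y axis) as deposited and under 3 other scalings; grey bars span the 12 values that each leave out 1 array, and vertical lines mark the bounds 0.4 and 0.5. paxillus_10675 and paxillus_2754 stay above 0.59 throughout, whereas paxillus_858 drops from 0.45 to 0.21 after cyclic loess.

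Some of the 16 lay close to a bound. The 2 nearest inside were paxillus_858, with OM+N minus OM+N+G of 0.501, and paxillus_10905, with 0.502 for the same difference. The 2 nearest outside were paxillus_6566, with 0.499 for that difference, and paxillus_3459, whose OM+G minus OM+N+G was 0.396. When each of the 12 arrays was left out in turn, 5 of the 16 met the bounds every time, namely paxillus_2753, paxillus_2754, paxillus_6481, paxillus_10675 and paxillus_10925. paxillus_9783 met them in 7 of the 12.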

How the data were processed

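The deposited log2 values were made by the authors with RMA, per the submitters' processing notes. The sources used here name no software or version, and the log2 scale was read from the values. The table of the series and the array files held identical values. The random-sequence control was left out. The 16 features and all descriptions were chosen with earlier results of these data known. All 16 are named, beside those nearest outside the bounds and those numbered next to the consecutive pair, which were looked up later. limma 3.58.1 (R 4.3.3; lmFit, eBayes) estimated a mean for each group from the 12 arrays together, with 8 residual and 4.72 prior degrees of freedom, and was tested on simulated data. Its moderated standard errors (SE) are the errors of differences. A feature was called at a Benjamini-Hochberg adjusted p under 0.05 over 12214 features. p-values measure the spread between these arrays, which share 1 slide. Background correction and probe summary could not be varied, and the planned choice on 2 of 3 replicate numbers is not reported. None of the 12214 feature numbers matched the 18033 genes of the reference table, so gene lists and cell identity could not be checked.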

Additional observations from a re-analysis of the deposited data

How the results depend on the processing

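The count of 16 was 12 after cyclic loess, 11 after quantile normalization and 22 after scaling to the 75th percentile, of which 5, 7 and 16 were among the 16; it was 17 without a minimum level and 16 with a minimum of 8. Leaving out 1 array gave 11 (without OM+N+G replicate 3) to 24 (without OM+N+G replicate 1), and leaving out both OM replicate 2 and OM+N replicate 1 gave 17. The median of OM minus OM+N+G moved from 0.69 to 0.56 after cyclic loess and to 0.58 after quantile normalization, and that of OM+N minus OM+N+G from 0.60 to 0.47 after cyclic loess; the cause was not tested. Leaving out 1 array moved the 3 medians to 0.66 to 0.75, 0.57 to 0.65 and 0.48 to 0.54. The smallest differences of single features moved by more than the pooled SD in 14 of 32 values under cyclic loess and quantile normalization and in 2 of 240 under the other alternatives, and none changed sign. Many of the 240 could not move, so their count is no measure of stability. They include the identical values of the series. Leaving out an array also mostly keeps a smallest difference that is set by other groups.

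Of the 16, 0 were called for OM+N minus OM in every limma fit, with 0 to 4 at an unadjusted p under 0.05. The lowest adjusted p over the 16 was 0.0939 (without OM replicate 3) to 0.597 (without OM replicate 2) when 1 array was left out, and 0.1 after cyclic loess. A fit to OM and OM+N alone gave 0.391, and a log2 fold minimum of 0.5 gave 1. Without the dimmest 25% of all 12214 features, 7 of the 16 could be tested. With the replicate number as a block the count was 0 and the lowest adjusted p 0.18. Same-numbered OM and OM+N arrays had deviations that correlated with 0.19, 0.43 and -0.20, so the numbers are not taken to pair them. No named feature was called, so no call could be lost. With few features called in any fit, the lack of calls among the 16 is no measure of stability.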
